A study of Rattus norvegicus with 24 samples.

Results

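Growth hormone dependent genes of the male rat liver were followed through liver injury and repair. The 7 genes were the P450 genes Cyp2c11, Cyp2c13, Cyp2a2 and Cyp3a2, the insulin-like growth factor genes Igfals and Igf1, and the receptor gene Ghr. Their members were the 8 probe sets, of 31042 tested, whose platform annotation named only 1 of these genes. They were 1387328_PM_at for Cyp2c11, 1370495_PM_s_at for Cyp2c13, 1369424_PM_at for Cyp2a2 and 1370593_PM_at for Cyp3a2, and 1387816_PM_at for Igfals and 1370333_PM_a_at for Igf1. Ghr had 2 such probe sets and every other gene had 1. A further probe set, which named both Cyp2a1 and Cyp2a2, was left out. Liver RNA came from male Sprague Dawley rats aged 8 weeks, 1 rat per array, in 4 groups of 6. ANIT, alpha-naphthylisothiocyanate, is a toxicant of the biliary tree and liver parenchyma. The groups were ANIT at 50 mg/kg with necropsy at 24 h, corn oil vehicle at 24 h, ANIT at 50 mg/kg at 120 h, and corn oil vehicle at 120 h. The labels place peak injury at 24 h and repair at 120 h. All rats had 1 intragastric dose of 10 ml/kg, were fasted for about 18 h and received BrdU, a label of DNA synthesis, at 100 mg/kg about 2 h before necropsy.

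Growth hormone reaches the liver in pulses in male rats and more steadily in females. It binds its receptor, encoded by Ghr, on hepatocytes, which activates the kinase Jak2 and the transcription factor Stat5b. Pulses maintain the male-predominant P450 gene Cyp2c11, while total growth hormone action maintains Igf1 and Igfals in liver. Igf1 encodes the circulating growth factor, and Igfals encodes the acid-labile subunit that holds it in large complexes in plasma. Fasting lowers hepatic growth hormone action, and every group here had been fasted.

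Promoter sequences were available for 6 of the 7 genes from RefSeq, build GRCr8. They are shown for Cyp2c11, which was called at 120 h, and for 3 genes called at 24 h, so that the letters can be set beside the values that come later. Each runs 5′ to 3′ on the strand of its gene, with 250 bases before the annotated start and 50 after it. Capitals mark matches to the motifs searched, and no capitals means no match.
Cyp2c11: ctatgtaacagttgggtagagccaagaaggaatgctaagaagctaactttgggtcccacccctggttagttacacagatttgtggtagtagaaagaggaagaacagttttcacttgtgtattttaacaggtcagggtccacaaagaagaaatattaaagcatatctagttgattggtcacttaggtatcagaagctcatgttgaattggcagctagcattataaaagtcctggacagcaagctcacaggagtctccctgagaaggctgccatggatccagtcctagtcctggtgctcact
Cyp2c13: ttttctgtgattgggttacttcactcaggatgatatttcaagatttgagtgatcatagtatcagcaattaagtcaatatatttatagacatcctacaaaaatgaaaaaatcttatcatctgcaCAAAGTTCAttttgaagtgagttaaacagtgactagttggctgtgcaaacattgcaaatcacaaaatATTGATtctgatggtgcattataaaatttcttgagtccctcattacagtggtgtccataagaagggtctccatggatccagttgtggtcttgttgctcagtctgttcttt
Cyp3a2: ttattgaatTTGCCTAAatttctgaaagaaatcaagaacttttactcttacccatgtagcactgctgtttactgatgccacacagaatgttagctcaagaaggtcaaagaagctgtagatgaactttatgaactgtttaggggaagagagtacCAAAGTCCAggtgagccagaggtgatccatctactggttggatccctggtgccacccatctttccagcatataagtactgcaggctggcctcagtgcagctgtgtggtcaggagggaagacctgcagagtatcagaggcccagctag
Igfals: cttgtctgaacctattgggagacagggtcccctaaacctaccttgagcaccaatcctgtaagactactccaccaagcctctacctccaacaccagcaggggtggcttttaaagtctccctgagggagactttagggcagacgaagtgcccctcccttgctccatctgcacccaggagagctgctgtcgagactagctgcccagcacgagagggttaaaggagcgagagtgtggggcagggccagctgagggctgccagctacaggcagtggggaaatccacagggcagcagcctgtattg
The windows lie at chr1:246174966-246175265 on the plus strand for Cyp2c11 and chr1:248787139-248787438 on the minus strand for Cyp2c13. They lie at chr12:14343808-14344107 on the minus strand for Cyp3a2 and chr10:14403600-14403899 on the plus strand for Igfals. Both strands were searched for 4 motifs. The STAT5 motif TTCNNNGAA was present in 8.87% of the 33469 promoters of this length and in 0 of the 6 member promoters. The HNF4 motif CAAAGTNCA, present in 1.24% of promoters, began 127 bases before the Cyp2c13 start and 97 bases before the Cyp3a2 start. The HNF6 motif ATTGAT, present in 8.06%, began 60 bases before the Cyp2c13 start and 41 bases before the Ghr start. The C/EBP motif TTGCNNAA, present in 10.6%, began 241 bases before the Cyp3a2 start. These motifs do not overlap one another in the windows shown. A match is a run of letters and no measured binding. Only the window at the annotated start was searched for each gene, so matches elsewhere would be missed. With 6 promoters, 0 matches say little beside a share of 8.87%.

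The arrays themselves differed in ways that run beside the groups. Array SDs lay between 1.84 and 2.09 on the log2 scale, and the 6 lowest were vehicle 24 h replicates 3, 4 and 5 and ANIT 120 h replicates 4, 5 and 6. The log2 3′ to 5′ signal ratio of the beta-actin control, a measure of RNA integrity, was 3.12 ± 0.07 with ANIT and 2.84 ± 0.05 with vehicle at 24 h (SD, n = 6 each, exact permutation p = 0.0022, two-sided, adjusted p = 0.018 over 33 tests). That p is the smallest that 6 against 6 arrays can give. At 24 h the ANIT ratios ran from 2.98 to 3.18 and the vehicle ratios from 2.77 to 2.91, without overlap. A fit with this ratio as a covariate therefore cannot well separate ANIT at 24 h from the ratio. At 120 h the ratio was 2.76 ± 0.15 with ANIT and 2.83 ± 0.08 with vehicle (exact permutation p = 0.37). The same ratio of the GAPDH control ran the other way at 24 h, at 1.62 with ANIT and 1.71 with vehicle. Its difference there was -0.09 (exact permutation p = 0.048, adjusted p = 0.14), and at 120 h it was -0.02 (exact permutation p = 0.56). The mean level of 7 measured hepatocyte markers of 8 listed was 12.83 with ANIT and 12.88 with vehicle at 24 h (exact permutation p = 0.087). At 120 h it was 12.74 with ANIT and 12.85 with vehicle (exact permutation p = 0.0022, adjusted p = 0.018).

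At 24 h, 4 of the 8 member probe sets fell with ANIT and none rose. Across all probe sets 11.9% changed, 7.9% rose and 3.96% fell, at a Benjamini-Hochberg adjusted p under 0.05 in limma. The 4 were the male-predominant Cyp2c13, Cyp2a2 and Cyp3a2 and the growth factor partner Igfals. The median log2 change was -0.49 over the members and -0.05 over all probe sets, and all 8 member changes were negative. At 120 h the picture differed: Cyp2c11 fell, at 1 of 8 members against 0.963% of all probe sets, and 0.699% of all fell. The median change at 120 h was -0.27 over the members and 0.02 over all probe sets. All 8 members were brighter than the median probe set, so all probe sets are a dimmer background. With probe sets of mean level below the median left out, 3846 of 15521 changed at 24 h, 2653 higher and 1193 lower. In that fit 450 changed at 120 h, 96 higher and 354 lower.

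Cyp2c11, the most abundant P450 of the adult male rat liver and a steroid hydroxylase, moved late. At 24 h its log2 values ran from 11.34 through a median of 11.70 to 12.09 with ANIT, and from 11.62 through 11.85 to 12.07 with vehicle. The groups overlapped and the change was -0.16 ± 0.20 (SE, adjusted p = 0.63), with a 95% interval of -0.59 to 0.26. At 120 h its values ran from 9.64 through 10.96 to 11.53 with ANIT, and from 11.86 through 11.99 to 12.13 with vehicle. All 6 ANIT rats lay below all 6 vehicle rats, and the ANIT rats were widely spread, at 10.80 ± 0.69 against 11.99 ± 0.11 (SD, n = 6 each). Groups that did not overlap, with ANIT lower, occurred in 1.14% of all probe sets at 120 h. Cyp2c11 fell by 1.19 on the log2 scale at 120 h, 2.28-fold, with an SE of 0.20 and an adjusted p of 0.0033 in limma. The call held in all 24 fits that left out 1 array. A two-group fit without moderation of the variance gave an adjusted p of 0.13 for Cyp2c11.

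Cyp2c13, a P450 of male rat liver from the same subfamily, moved early instead. Its values at 24 h were 11.34, 11.48 and 11.87 (lowest, median, highest) with ANIT, and 11.84, 12.11 and 12.29 with vehicle. Of the ANIT rats, 5 of 6 lay below every vehicle rat. It fell by 0.56 on the log2 scale, 1.47-fold, with an SE of 0.10 (adjusted p = 0.00026). At 120 h its values were 12.02, 12.14 and 12.31 with ANIT, and 11.88, 12.06 and 12.14 with vehicle. Here the groups overlapped and the change was 0.11 ± 0.10 (SE, adjusted p = 0.7). The probe set type of Cyp2c13 can share probes with related transcripts, so close P450 relatives may add to its signal.

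Cyp2a2, a male-predominant testosterone hydroxylase, followed the same course as Cyp2c13. At 24 h its values were 11.30, 11.42 and 11.66 with ANIT, and 12.10, 12.16 and 12.27 with vehicle. Every ANIT rat lay below every vehicle rat. Cyp2a2 fell by 0.73 on the log2 scale, 1.66-fold, with an SE of 0.08 (adjusted p = 3.4e-07). At 120 h its values were 12.11, 12.30 and 12.43 with ANIT, and 12.14, 12.24 and 12.36 with vehicle. The groups overlapped, and the change was 0.04 ± 0.08 (SE, adjusted p = 0.86).

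Cyp3a2, a male-predominant P450 that oxidises steroids and many drugs, also moved early. At 24 h its values were 11.52, 11.85 and 12.05 with ANIT, and 12.42, 12.50 and 12.67 with vehicle. The groups did not overlap. Cyp3a2 fell by 0.68 on the log2 scale, 1.60-fold, with an SE of 0.09 (adjusted p = 1.6e-05). At 120 h its values were 12.38, 12.41 and 12.65 with ANIT, and 12.18, 12.40 and 12.61 with vehicle. The groups overlapped, and the change was 0.07 ± 0.09 (SE, adjusted p = 0.81).

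**Figure D1:**
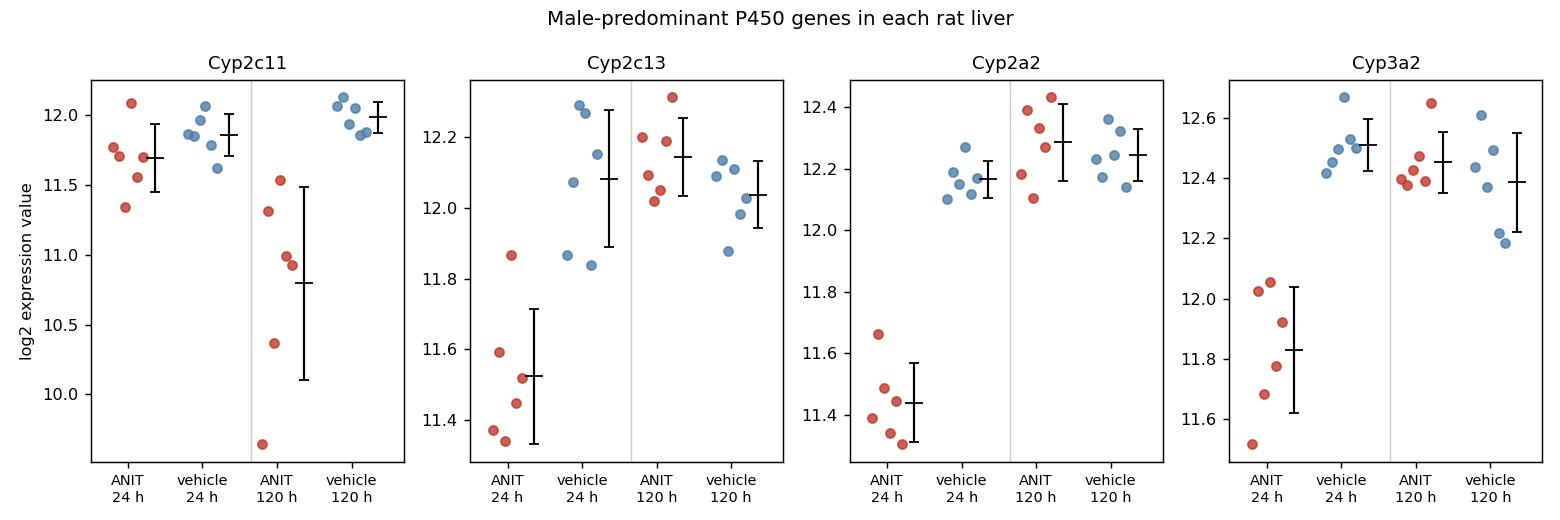
Log2 expression values of the 4 P450 genes, with 1 point per rat and the mean and SD of each group of 6 beside the points; each panel has its own vertical scale, which does not start at 0. Cyp2c11 is spread low in ANIT rats at 120 h, from 9.64 to 11.53, while Cyp2c13, Cyp2a2 and Cyp3a2 are low in ANIT rats at 24 h.

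Igfals had the largest change of the 8 members at 24 h. Its values were 6.78, 7.16 and 7.73 with ANIT, and 7.85, 8.58 and 8.80 with vehicle, without overlap. Together with Cyp2a2 and Cyp3a2 it made 3 of 8 members without overlap, against 1.8% of all probe sets with ANIT lower. Igfals fell by 1.26 on the log2 scale at 24 h, 2.40-fold, with an SE of 0.19 (adjusted p = 4.4e-05). At 120 h its values were 7.53, 7.74 and 8.33 with ANIT, and 8.14, 8.57 and 9.07 with vehicle. Of the ANIT rats, 4 of 6 lay below every vehicle rat. The change at 120 h was -0.75 ± 0.19 (SE) and did not pass the threshold, with an adjusted p of 0.054. Igfals passed in 4 of 12 other processings (adjusted p from 0.032 to 0.042), and also when any 1 of 6 arrays was left out (adjusted p from 0.028 to 0.043). These were ANIT 24 h replicate 2, vehicle 24 h replicates 1 and 5, ANIT 120 h replicates 2 and 3, and vehicle 120 h replicate 3. Without the 6 arrays of lowest SD the Igfals change at 120 h was -0.46 (adjusted p = 0.40).

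Igf1 lay slightly lower with ANIT at both times, and neither change passed the threshold. At 24 h its values were 11.89, 12.03 and 12.10 with ANIT, and 12.00, 12.26 and 12.39 with vehicle. At 120 h they were 11.91, 11.99 and 12.21 with ANIT, and 11.96, 12.31 and 12.43 with vehicle. The groups overlapped at both times, although all 6 ANIT rats lay below the vehicle median each time. The change was -0.22 ± 0.09 at 24 h (SE, adjusted p = 0.12, 95% interval -0.40 to -0.03) and -0.22 ± 0.09 at 120 h (SE, adjusted p = 0.31). With array weights the Igf1 change at 24 h passed, at -0.28 (adjusted p = 0.015), while it was -0.14 with a common median (adjusted p = 0.43). Once the beta-actin ratio was a covariate, the Igf1 change at 24 h was -0.095 (adjusted p = 0.9).

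Ghr was read by 2 probe sets, which agreed in sign. The brighter, 1373803_PM_a_at, had values of 9.81, 10.04 and 10.57 with ANIT at 24 h, and 9.89, 10.46 and 10.56 with vehicle. At 120 h it had 9.92, 10.22 and 10.70 with ANIT, and 10.26, 10.62 and 10.89 with vehicle. The groups overlapped at both times. Its change was -0.25 ± 0.15 at 24 h (SE, adjusted p = 0.32) and -0.32 ± 0.15 at 120 h (SE, adjusted p = 0.43). Without the 6 arrays of lowest SD, which include 3 of the ANIT 120 h arrays, the change of this Ghr probe set at 120 h was -0.064 (adjusted p = 0.93). The dimmer, 1368924_PM_at, had values of 5.68, 5.85 and 6.22 with ANIT at 24 h, and 5.85, 6.40 and 6.54 with vehicle. At 120 h it had 5.34, 6.25 and 6.58 with ANIT, and 6.22, 6.57 and 6.80 with vehicle. It changed by -0.42 ± 0.18 at 24 h (SE, adjusted p = 0.15) and -0.48 ± 0.18 at 120 h (SE, adjusted p = 0.26). Its change at 120 h was -0.082 when those 6 arrays were left out (adjusted p = 0.89). The dimmer Ghr probe set passed at 24 h in 5 of 11 other processings, with changes from -0.48 to -0.86, so its side of the threshold was not settled.

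**Figure D2:**
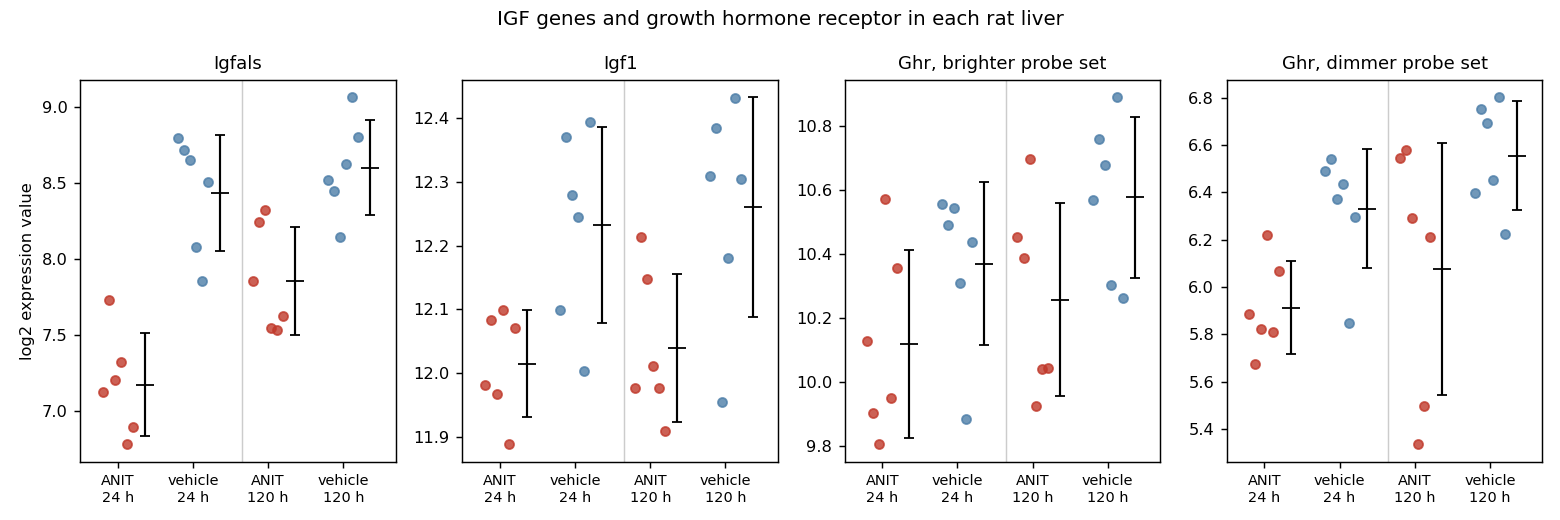
Log2 expression values of Igfals, Igf1 and both Ghr probe sets, with 1 point per rat and the mean and SD of each group of 6; each panel has its own vertical scale, which does not start at 0. The Igfals groups separate at 24 h, where ANIT rats reach at most 7.73 and vehicle rats start at 7.85, and every other ANIT and vehicle pair of the same time overlaps.

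Whether the response depended on time was tested as the ANIT effect at 120 h minus that at 24 h. It differed for 4 of 8 members, against 8.65% of all probe sets, and the 4 were the P450 genes. The effect was higher at 120 h for 3 members (2.26% of all) and lower for 1 (6.39% of all). The difference was 0.67 ± 0.14 for Cyp2c13 (SE, adjusted p = 0.0028) and 0.77 ± 0.11 for Cyp2a2 (SE, adjusted p = 6.1e-05). It was 0.75 ± 0.13 for Cyp3a2 (SE, adjusted p = 0.00077), and for Cyp2c11 it was -1.02 ± 0.29 (SE, adjusted p = 0.027). So Cyp2c11 ran opposite in time to the other P450 genes. With the beta-actin ratio as a covariate only 2 of the 8 members passed, as the adjusted p became 0.052 for Cyp2c13 and 0.061 for Cyp3a2, at differences of 0.74 for Cyp2c13 and 0.70 for Cyp3a2. The Cyp2c11 difference was -1.57 with that covariate (adjusted p = 0.029). Cyp2c13 also had an adjusted p of 0.052 without the 6 arrays of lowest SD, at a difference of 0.58. The difference was 0.51 ± 0.27 for Igfals (SE, adjusted p = 0.23), and the 95% interval ran from -0.04 to 1.07. Igfals passed with quantile normalization (0.76), with the spiked control level as a covariate (0.89) and without the 6 arrays of lowest SD (1.04). For Igf1 the interval was -0.27 to 0.26, and for Ghr it was -0.52 to 0.38 and -0.59 to 0.47. Between vehicle at 120 h and vehicle at 24 h, 0 of 8 members changed in limma and 0 had an unadjusted p under 0.05, against 0.0193% of all probe sets changed. Their changes ran from -0.12 to 0.22.

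**Figure D3:**
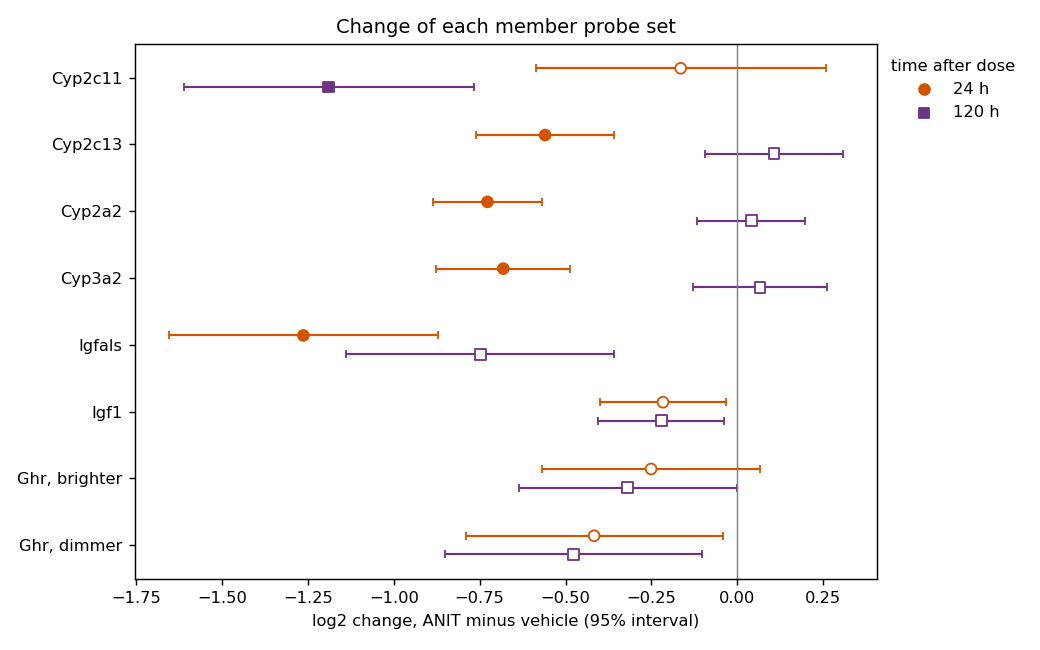
Log2 change of each member probe set, ANIT minus vehicle, at 24 h (circles) and 120 h (squares), with 95% intervals; filled symbols passed an adjusted p of 0.05. Cyp2c11 alone is filled at 120 h, at -1.19, while Cyp2c13, Cyp2a2, Cyp3a2 and Igfals are filled at 24 h.

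RNA from whole liver cannot tell fewer hepatocytes from less RNA per hepatocyte. The hepatocyte marker level differed by -0.05 at 24 h and by -0.12 at 120 h, beside falls of 0.56 to 1.26 and of 1.19 on the log2 scale among members. Among the 7 hepatocyte markers 1 was called higher at 24 h, the acute phase gene Fgb at 0.41, and 1 lower, Ahsg at -0.27. At 120 h their changes ran from -0.38 for Apoa1 to 0.0070 for Apoh. Their values ran from 11.81 to 13.31, near the highest value of the table, 13.50, and how far array signal was limited there was not tested. Markers of other cells moved too. At 24 h the mean level of 6 neutrophil markers was 5.18 with ANIT and 4.60 with vehicle (exact permutation p = 0.0043), with 3 of 6 genes higher. The mean of 5 macrophage markers, of 7 listed, was 8.65 with ANIT and 8.26 with vehicle (exact permutation p = 0.0022), with 2 of 5 higher. Over the 13438 genes 11.5% were called higher and 4.71% lower at 24 h, and 1.35% either way at 120 h. At 120 h the mean of 6 cholangiocyte markers was 4.98 with ANIT and 4.68 with vehicle (exact permutation p = 0.0022), with Krt19 alone called. The mean of 5 lymphocyte markers, of 6 listed, was 4.76 with ANIT and 5.01 with vehicle at 24 h (exact permutation p = 0.0087, adjusted p = 0.041), with Cd8a and Cd79b called lower. At 120 h it was 5.14 with ANIT and 4.98 with vehicle (exact permutation p = 0.0087, adjusted p = 0.041). Of 7 stellate cell and fibroblast markers, Lrat alone was called at 24 h, and it was lower. The mean of these markers at 24 h was 6.91 with ANIT and 7.10 with vehicle (exact permutation p = 0.043, adjusted p = 0.14). Their mean at 120 h was 7.36 with ANIT and 7.09 with vehicle (exact permutation p = 0.015, adjusted p = 0.062). For 5 endothelium markers the mean differed by -0.09 at 24 h (exact permutation p = 0.44) and -0.07 at 120 h (exact permutation p = 0.47). Of these 5, Lyve1 and Kdr were called at 24 h, 1 higher and 1 lower, so their mean hides opposite changes. The part of cell composition in the member changes was not tested.

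The genes around the pathway were read through 5 lists of 69 genes, of which 58 were measured, each by its brightest probe set. At 24 h, 12 of 58 changed, 7 higher and 5 lower, where 16.2% of the 13438 genes changed, 11.5% higher and 4.71% lower. At 120 h, 2 of 58 changed, both lower, where 1.35% of genes changed and 0.975% fell. For the difference between times, 11 of 58 changed, where 12% of genes changed, 2.69% higher and 9.26% lower. The median change over the 58 was 0.06 at 24 h and -0.10 at 120 h.

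In the growth hormone signalling list 5 of 15 measured genes rose and 1 fell at 24 h. Stat3, a transcription factor of cytokine signalling, ran from 9.52 through 9.72 to 9.85 with ANIT, and from 7.49 through 8.26 to 8.76 with vehicle, without overlap. It rose by 1.52 ± 0.19 (SE, adjusted p = 3.8e-06), and its other probe set rose by 1.85. Stat5b, the factor through which growth hormone pulses act in mice and rats, was dim and rose by 0.60 ± 0.15 (SE, adjusted p = 0.0078). Shc1, an adaptor of receptor kinases, rose by 0.57 ± 0.12 (SE, adjusted p = 0.0022). The phosphatase gene Ptpn11 rose by 0.45 ± 0.12 (SE, adjusted p = 0.014), and its dimmer probe set changed by 0.19 (adjusted p = 0.32). Socs2, a feedback inhibitor induced by growth hormone, had 5.08, 5.74 and 6.47 with ANIT, and 6.14, 7.01 and 7.81 with vehicle, and 5 of 6 ANIT rats lay below every vehicle rat. It fell by 1.18 on the log2 scale with an SE of 0.30 (adjusted p = 0.011). Jak2 changed by 0.18 (adjusted p = 0.42), and Cish, another feedback inhibitor, by 0.61 ± 0.35 (SE, adjusted p = 0.28), with -0.05 on its other probe set. Among these, with the beta-actin ratio as a covariate, the adjusted p became 0.22 for Stat5b, 0.33 for Shc1, 0.19 for Ptpn11 and 0.065 for Socs2. Without the 6 arrays of lowest SD it was 0.055 for Stat5b and 0.38 for Ptpn11. The Ptpn11 call was lost in 5 of 12 other processings, these included.

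Socs3, a feedback inhibitor of cytokine signalling, rose by 0.28 ± 0.09 at 24 h (SE, adjusted p = 0.042) at a low level. The Socs3 call was lost without any 1 of 10 arrays, namely ANIT 24 h replicates 1, 2, 4, 5 and 6 and vehicle 24 h replicates 1, 2, 4, 5 and 6 (adjusted p from 0.051 to 0.11). It was also lost in 4 of 11 other processings (adjusted p up to 0.64). At 120 h the one called gene of this list was Irs1, an adaptor of the insulin and IGF receptors. Irs1 had 7.15, 7.58 and 7.86 with ANIT at 120 h, and 7.68, 8.03 and 8.31 with vehicle, and 5 of 6 ANIT rats lay below every vehicle rat. It fell by 0.50 on the log2 scale with an SE of 0.12 (adjusted p = 0.041). The Irs1 call was lost without any 1 of 12 arrays (adjusted p from 0.05 to 0.12). These were ANIT 24 h replicates 1 and 5, vehicle 24 h replicates 2, 3 and 6, ANIT 120 h replicates 1, 4, 5 and 6, and vehicle 120 h replicates 2, 3 and 5. It was also lost in 7 of 12 other processings (adjusted p from 0.057 to 0.27). At 120 h Jak2 changed by 0.03, Stat5b by -0.18, Socs2 by -0.02 and Cish by -0.46, none past the threshold, and the Jak2 and Socs2 values changed sign under other scalings.

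In the IGF axis list 2 of 13 measured genes fell at 24 h. Igfbp2, a binding protein of the growth factors, had 4.91, 5.84 and 7.20 with ANIT, and 6.90, 7.67 and 8.51 with vehicle, and 4 of 6 ANIT rats lay below every vehicle rat. It fell by 1.70 on the log2 scale with an SE of 0.39 (adjusted p = 0.0044), and the adjusted p was 0.060 with the beta-actin ratio as a covariate and 0.053 without moderation. Igfbp7, a related secreted protein, fell by 0.24 with an SE of 0.08 (adjusted p = 0.047), without overlap between the groups. The Igfbp7 call was lost without any 1 of 19 arrays (adjusted p from 0.05 to 0.15), that is all but ANIT 24 h replicate 2, vehicle 24 h replicate 1, ANIT 120 h replicates 1 and 4, and vehicle 120 h replicate 2. It was also lost in 6 of 12 other processings (adjusted p up to 0.76). Igfbp3, the main plasma carrier of Igf1 together with the product of Igfals, changed by -0.33 ± 0.18 at 24 h (SE, adjusted p = 0.25). It passed at 24 h in 3 of 12 other processings, with changes from -0.48 to -0.63. At 120 h Igfbp3 changed by -0.68 ± 0.18 (SE, adjusted p = 0.059), and its dimmer probe set by -0.94 (adjusted p = 0.035). Igfbp3 passed at 120 h without ANIT 24 h replicate 4, ANIT 120 h replicate 1 or ANIT 120 h replicate 3 (adjusted p from 0.02 to 0.044), and in 6 of 12 other processings. The Igfbp3 change at 120 h was -0.29 without the 6 arrays of lowest SD (adjusted p = 0.63). Igfbp1 changed by 0.01 at 24 h (adjusted p = 0.98) and by -0.32 at 120 h (adjusted p = 0.45), and its sign at 24 h turned under other scalings.

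Among 8 other male-biased genes, Hao2, a peroxisomal oxidase, fell at 24 h by 0.86 on the log2 scale with an SE of 0.13 (adjusted p = 4e-05). At 120 h the 1 gene called lower was Obp3, of the alpha2u-globulin family of male rat liver. The other 7 were not called at 120 h. The median change over the 8 genes was 0.02 at 24 h and -0.46 at 120 h, against 0.005 and -0.006 over all genes. Obp3 had 8.16, 9.08 and 10.89 with ANIT at 120 h, and 10.45, 11.27 and 11.47 with vehicle, and 5 of 6 ANIT rats lay below every vehicle rat. It fell by 1.90 on the log2 scale with an SE of 0.43 (adjusted p = 0.025), and its other probe set fell by 1.92 (adjusted p = 0.012). The family has many near-identical copies, so which of them was measured is uncertain. The Obp3 call was lost without any 1 of 8 arrays (adjusted p from 0.05 to 0.066), namely ANIT 120 h replicates 1, 3, 5 and 6 and vehicle 120 h replicates 3, 4, 5 and 6. Without the 6 arrays of lowest SD the Obp3 adjusted p was 0.16. The Obp3 call was lost in 3 of 12 other processings, this one included. Among 10 female-biased genes, Cyp3a9, a P450 higher in female rats, rose at 24 h by 1.31 ± 0.29 (SE, adjusted p = 0.003), and without moderation its adjusted p was 0.055. The other 9 were not called at 24 h, where 11.5% of all genes were called higher. At 120 h Cyp3a9 changed by -0.86 ± 0.29 (SE, adjusted p = 0.18), with all 6 ANIT rats below all 6 vehicle rats. None of the 10 was called at 120 h.

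Among 13 measured transcription factors, 1 rose and 1 fell at 24 h. Nr1i3, a nuclear receptor that induces P450 genes, fell by 0.95 on the log2 scale with an SE of 0.25 (adjusted p = 0.014). Without ANIT 24 h replicate 6 the Nr1i3 adjusted p was 0.05, and without moderation it was 0.11. Hnf4a, a hepatocyte factor that controls many P450 genes, rose by 0.31 ± 0.09 (SE, adjusted p = 0.027) on its brightest probe set, while its dimmer probe sets changed by -0.32 (adjusted p = 0.044) and -0.35. The Hnf4a probe sets thus disagreed in sign. The Hnf4a call was lost without ANIT 24 h replicates 1 or 6 or vehicle 24 h replicates 3 or 6 (adjusted p from 0.061 to 0.087). It was also lost in 5 of 12 other processings (adjusted p up to 0.22). At 120 h Hnf4a changed by -0.01, a value whose sign turned under other scalings.

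**Figure D4:**
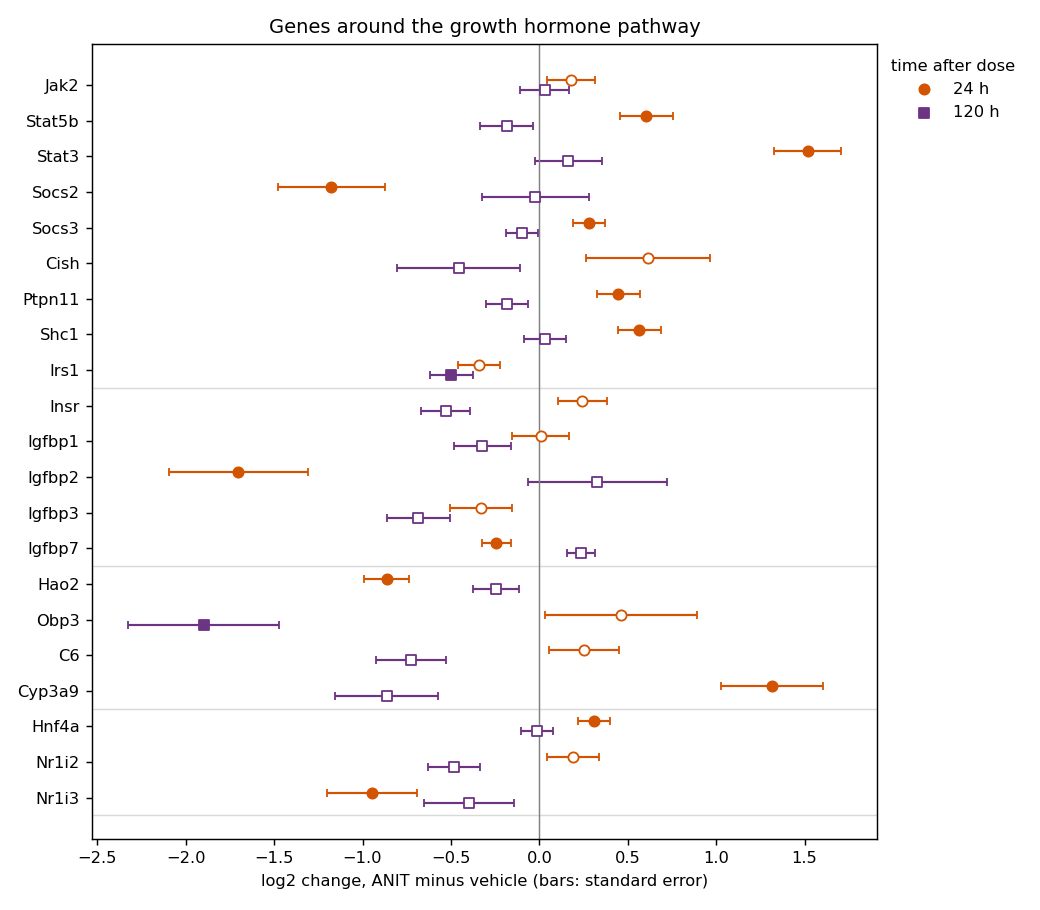
Log2 change, ANIT minus vehicle, of the list genes named in the text at 24 h (circles) and 120 h (squares), each by its brightest probe set, with standard errors; filled symbols passed an adjusted p of 0.05. Stat3 at 1.52 and Igfbp2 at -1.70 stand out at 24 h and Obp3 at -1.90 at 120 h.

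Across the 24 arrays the members fell into looser and tighter pairs. Pearson correlations of log2 values were 0.91 between Cyp2c13 and Cyp3a2, 0.84 between Cyp2c13 and Cyp2a2 and 0.86 between Cyp2a2 and Cyp3a2. Cyp2c11 correlated with these 3 at -0.14 for Cyp2c13, -0.12 for Cyp2a2 and -0.04 for Cyp3a2. Igfals and Igf1 correlated at 0.78, and both Ghr probe sets at 0.85. Once group means were taken off, the values were 0.63 for Cyp2c13 with Cyp3a2, 0.64 for Igfals with Igf1, 0.07 for Cyp2c13 with Cyp2a2 and 0.19 for Cyp2a2 with Cyp3a2. Cyp2c11 then correlated at 0.19 with Cyp2c13, 0.32 with Cyp2a2 and 0.28 with Cyp3a2. These arrays share groups and scaling, so the correlations are descriptions. Of all other genes, the most like each member over the 24 arrays were Slc22a8 for Cyp2c11 (0.78), Ust5r for Cyp2c13 (0.92), Pon3 for Cyp2a2 (0.96) and Cyp2e1 for Cyp3a2 (0.91). They were Pgrmc2 for Igfals (0.91), Idh1 for Igf1 (0.77) and Cd59b for Ghr (0.79).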

How the data were processed

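The authors' deposited values are on a log2 scale, 1 per probe set and array, made with RMA and Partek per the submitters' processing notes; no version or setting of either is given here. They were used unchanged, without 97 control probe sets. Names came from the platform annotation. With limma 3.58.1 in R 4.3.3 (lmFit, eBayes), 1 mean per group was fitted to each of 31042 probe sets. Calls needed an adjusted p (Benjamini-Hochberg, all probe sets) under 0.05, at any fold. Folds are antilogs of log2 differences. Single values per array had exact two-sided permutation tests (scipy 1.17.1). The fit was tested on simulated data with known changes placed at 24 h. The number of arrays, 6 per group, limits precision.

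Members and lists were chosen with earlier results of these data known. In each list and comparison the called genes of smallest p were named, at most 6, with Jak2, Stat5b, Socs2, Cish, Igfbp1, Igfbp3 and Hnf4a named in both ANIT comparisons. Alternatives were 12 other processings (11 for the difference between times) and leaving out each of 24 arrays in turn. Groups came from the labels, with 1 rat per array.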

Additional observations from a re-analysis of the deposited data

Results flagged for a closer look

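In 32 groups of 6 values, 1 for each member probe set and group, 3 held a rat apart from the rest by Dixon's test, and chance gives about 1 in 20. Cyp3a2 in ANIT 120 h replicate 6 was 12.65, with the nearest other rat at 12.47. Ghr in vehicle 24 h replicate 5 was 9.89 on the brighter probe set and 5.85 on the dimmer, with the nearest rats at 10.31 and 6.30. Both Ghr values come from 1 array, which is also 1 of the 6 arrays of lowest SD.

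The ANIT effect differed between 120 h and 24 h for 4 members, by -1.02 for Cyp2c11, 0.67 for Cyp2c13, 0.77 for Cyp2a2 and 0.75 for Cyp3a2 on the log2 scale. It differed for 11 of 58 list genes, 3 higher and 8 lower, where 12% of all genes differed, 2.69% higher and 9.26% lower. In growth hormone signalling the difference was -0.79 for Stat5b (limma adjusted p = 0.02), -1.35 for Stat3 (adjusted p = 0.0019) and -0.63 for Ptpn11 (adjusted p = 0.021). In the IGF axis it was -0.77 for the insulin receptor gene Insr (adjusted p = 0.014), 2.03 for Igfbp2 (adjusted p = 0.023) and 0.48 for Igfbp7 (adjusted p = 0.0082). It was 0.62 for Hao2 (adjusted p = 0.034), -2.36 for Obp3 (adjusted p = 0.015) and -2.18 for Cyp3a9 (adjusted p = 0.0012). It was -0.98 for the complement gene C6 (adjusted p = 0.028) and -0.67 for the nuclear receptor gene Nr1i2 (adjusted p = 0.044). Any change between the vehicle groups enters these differences. From 24 h to 120 h the vehicle mean changed by 0.67 for C6, 1.13 for Obp3, 0.61 for Nr1i2 and 0.42 for Cyp3a9. The change was 0.35 for Insr, 0.28 for Ptpn11, 0.23 for Stat5b and 0.13 for Igfbp2. For Hao2 it was 0.06, for Igfbp7 -0.02 and for Stat3 -0.03. None of these vehicle changes was called, and their part in the differences was not tested.

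Of the 11 list genes called for the difference, 10 lost the call with the beta-actin ratio as a covariate. Cyp3a9 kept it, at -2.51. Over all 31042 probe sets the calls for the difference went from 2685 to 526 with that covariate. The ratio did not overlap between ANIT and vehicle at 24 h, so these lost calls cannot tell it from ANIT. With that covariate the difference was 2.38 for Igfbp2, -2.16 for Obp3, -1.14 for C6, 0.66 for Hao2, -0.66 for Ptpn11 and -0.73 for Stat5b. It was -1.09 for Stat3, -0.48 for Insr, 0.34 for Igfbp7 and -0.45 for Nr1i2. Without the 6 arrays of lowest SD the difference was -0.79 for Stat3, -0.31 for Ptpn11, -0.31 for Insr and -0.27 for Nr1i2. Among these the calls of Ptpn11, Insr and Nr1i2 were lost, and further list genes lost theirs too. Over all other processings, Stat5b lost the call in 5 of 10 (adjusted p up to 0.31). C6 lost it in 4 of 11 (up to 0.21), Hao2 in 3 (up to 0.26) and Obp3 in 2 (up to 0.28). Nr1i2 lost it in 6 of 11, Ptpn11 in 4, Insr in 3, Igfbp7 in 2, and Igfbp2 and Stat3 in 1 each. The C6 call was lost without ANIT 120 h replicates 4 or 6, vehicle 24 h replicate 5 or vehicle 120 h replicates 2 or 5 (adjusted p from 0.051 to 0.055). The Hao2 call was lost without any 1 of 11 arrays (adjusted p from 0.052 to 0.067), namely ANIT 24 h replicates 1, 2 and 6, vehicle 24 h replicates 3, 4 and 6, ANIT 120 h replicates 2, 5 and 6, and vehicle 120 h replicates 3 and 5. The Nr1i2 call was lost without any 1 of 16 arrays (adjusted p from 0.051 to 0.087), that is all but ANIT 24 h replicates 4 and 5, vehicle 24 h replicate 1, ANIT 120 h replicates 1, 2 and 3, and vehicle 120 h replicates 1 and 2.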

How the results depend on the processing

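At 24 h the calls of Cyp2c13, Cyp2a2, Cyp3a2 and Igfals held in all 24 fits that left out 1 array and in all 12 other processings. At 120 h the count of called members, 1, was 2 with the array SD as a covariate, with a trend and robust prior, with dim probe sets left out and with 1 probe set per gene, 0 without moderation, and 1 to 2 with 1 array left out. For the difference between times, 4 members became 2 with the beta-actin ratio as a covariate. Counts of list genes moved more, and the counts over all probe sets moved as well. At 24 h, 12 became 5 with the beta-actin ratio and 7 without moderation. Over all probe sets 3683 then became 1190 and 2620. At 120 h, 2 became 4 with quantile normalization, 5 with the control level, 6 with the array SD, 0 with the beta-actin ratio, 0 without the 6 arrays of lowest SD, 4 with a trend prior, 6 with dim probe sets left out, 5 with 1 probe set per gene, 1 with only the groups compared, 0 without moderation, and 0 to 4 with 1 array left out. At 120 h, 299 of all probe sets became 831 with the array SD, 549 with quantile normalization and 508 with the control level. With a trend prior they became 395. They became 216 with the beta-actin ratio, 196 without the low-SD arrays, 181 with only the groups compared and 142 without moderation. For the difference, 11 became 1 with the beta-actin ratio and 5 without the low-SD arrays. Over all probe sets 2685 became 526 and 1036. Between vehicle groups, 0 became 1 with array weights and 0 to 1 with 1 array left out. With array weights 6 of all probe sets became 157.

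Some signs turned, all in values that were not called. The Cyp2c11 change at 24 h was 0.038 with the control level and 0.27 with the beta-actin ratio, and that of Cyp2a2 at 120 h was -0.019 without the low-SD arrays. The Igf1 difference was 0.054 with the control level, 0.014 with the array SD, 0.12 without the low-SD arrays and 0.065 with array weights, and -0.066 to 0.041 with 1 array left out. The difference of the brighter Ghr probe set was 0.045 with quantile normalization, 0.18 with the control level, 0.17 with the array SD, 0.060 with the beta-actin ratio, 0.31 without the low-SD arrays and 0.17 with array weights, and -0.16 to 0.029 with 1 array left out. That of the dimmer was 0.27, 0.26, 0.50, 0.45 and 0.21 with the control level, the array SD, the beta-actin ratio, without the low-SD arrays and with array weights, and -0.16 to 0.088 with 1 array left out. Cish at 24 h was -0.20 with the beta-actin ratio. Igfbp1 at 24 h was -0.0099 with the control level, -0.046 with the array SD, -0.20 without the low-SD arrays and -0.13 to 0.10 with 1 array left out. Jak2 at 120 h was -0.036 with quantile normalization, -0.0041 with a common median, -0.0037 without the low-SD arrays and -0.046 to 0.11 with 1 array left out. Socs2 at 120 h was 0.14 with the control level, 0.10 with the array SD, 0.061 with the beta-actin ratio, 0.27 without the low-SD arrays, 0.14 with array weights and -0.26 to 0.15 with 1 array left out. Hnf4a at 120 h was 0.030 with quantile normalization, 0.017 with the control level, 0.011 with the array SD and -0.034 to 0.029 with 1 array left out. The cause of these shifts was not tested. No paired analysis was possible because the rat numbers in the labels are unique and pair no rats across groups.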

Other observations

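With the group means taken off, the gene most like each member over the 24 arrays was Dvl3 for Cyp2c11 (Pearson r = 0.79), Slc24a1 for Cyp2c13 (0.81), Adra1b for Cyp2a2 (0.77), H1f10 for Cyp3a2 (0.83), Nectin2 for Igfals (0.78), Depp1 for Igf1 (0.72) and Mfsd14b for Ghr (0.82). Mfsd14b was also among the 3 genes most like Ghr over the values themselves (0.79). These values describe 24 arrays that share scaling, and the genes were picked from 13438 for the highest value.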
